A study of Mus musculus with 1 sample.

Results

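The genes described here are 10 basement membrane genes: the laminin α chains Lama2, Lama4 and Lama5, the β chains Lamb1 and Lamb2, the γ chain Lamc1, the nidogens Nid1 and Nid2, and the heparan sulfate proteoglycans Hspg2 (perlecan) and Agrn (agrin). They were taken by symbol from the 32285 genes of the count table, and were chosen with earlier results of these data known. The study asked how loss of SCAP, a protein that escorts the transcription factors of cholesterol synthesis, affects the cells of the mouse pancreas. The values come from 1 single-cell RNA sequencing library of pancreata from 2-week-old Scap f/f mice, titled wildtype. These mice carry floxed Scap alleles and no Cre, so that Scap is intact, and 5 to 6 pancreata of as many males as females were pooled, so that single animals cannot be told apart. The tissue was digested with Collagenase P and dead cells were removed before capture. A library with Scap deleted is not analysed here. A single library allows no test between conditions, and each interval below covers counting error only.

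Basement membranes are thin sheets of matrix that underlie epithelia and endothelia and wrap muscle, nerve and fat cells. Their base is laminin, a cross-shaped trimer of an α, a β and a γ chain that assembles inside the cell, is held by integrins and dystroglycan at the surface, and polymerises there. Nidogens bridge the laminin sheet to the collagen IV network, and perlecan and agrin tether growth factors and strengthen the link between the sheets. The α chain sets which receptor a laminin binds: trimers with Lama2 are known from muscle and Schwann cells, those with Lama4 from vessels, and those with Lama5 from epithelia, large vessels and adult tissues in general. In the pancreas, basement membrane surrounds acini, ducts, vessels and islets.

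Of 11789 barcodes, which held 500 to 174899 UMIs (unique molecular identifiers, each standing for 1 captured transcript), 10947 passed the limits of over 800 and under 100000 UMIs and under 15% mitochondrial UMIs. Their median was 2650 UMIs. Marker genes gated 8179 cells into 14 classes, of which the 12 with at least 50 cells were compared, and 2768 cells (25.3%) stayed ungated. The 12 classes were 3733 fibroblast, 1222 acinar, 923 T and NK, 540 red blood, 503 mesothelial, 353 blood endothelial, 349 B, 167 smooth muscle, 118 myeloid, 99 pericyte, 89 ductal and 59 Schwann cells. Each name stands for cells that resemble that type by their gate markers, none of which is among the 10 genes or the lists of related genes below. Scrublet marked 537 cells (4.91%) as doublets, between 0.536% of the fibroblast class and 11.7% of the red blood class, and they were kept. A level below is the number of UMIs of a gene per 1000000 UMIs of the class. Since 3′ capture differs between genes by an unknown factor, levels are compared between classes for the same gene, and families by how their shares change from class to class.

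The genes lie on mm10 as Lama2 (ENSMUSG00000019899, chr10:26980036-27619758, minus strand), Lama4 (ENSMUSG00000019846, chr10:38965515-39110188, plus strand), Lama5 (ENSMUSG00000015647, chr2:180176373-180225859, minus strand), Lamb1 (ENSMUSG00000002900, chr12:31265234-31329644, plus strand), Lamb2 (ENSMUSG00000052911, chr9:108479736-108490530, plus strand), Lamc1 (ENSMUSG00000026478, chr1:153218922-153332786, minus strand), Nid1 (ENSMUSG00000005397, chr13:13437551-13512269, plus strand), Nid2 (ENSMUSG00000021806, chr14:19751265-19811787, plus strand), Hspg2 (ENSMUSG00000028763, chr4:137468769-137570630, plus strand) and Agrn (ENSMUSG00000041936, chr4:156165290-156197488, minus strand). No other counted gene of the GENCODE M21 annotation overlaps any of the 10 on the same strand, and on the opposite strand 2 overlap Lama2, 1 overlaps Nid1 and 1 overlaps Nid2. RefSeq (GRCm38.p6) start sites were at hand for 7 of the 10, all but Lama4, Lamc1 and Nid2. The sequences upstream of 4 starts are shown for the genes whose class patterns the results turn on, Lama2 and Nid1, with their highest levels in fibroblasts, and Lama5 and Lamb2, with their highest levels in smooth muscle cells. Each runs 5′ to 3′ on the strand of the gene and stops before the first annotated exon of the gene that lies within the 250 bases ahead of the RefSeq start.
Lama2 (chr10:27616943-27617192, minus strand): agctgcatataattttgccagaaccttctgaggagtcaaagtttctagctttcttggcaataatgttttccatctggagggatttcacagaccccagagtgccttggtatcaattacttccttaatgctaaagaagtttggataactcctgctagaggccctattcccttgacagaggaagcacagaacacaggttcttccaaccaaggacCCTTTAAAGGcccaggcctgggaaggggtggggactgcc
Nid1 (chr13:13437352-13437550, plus strand): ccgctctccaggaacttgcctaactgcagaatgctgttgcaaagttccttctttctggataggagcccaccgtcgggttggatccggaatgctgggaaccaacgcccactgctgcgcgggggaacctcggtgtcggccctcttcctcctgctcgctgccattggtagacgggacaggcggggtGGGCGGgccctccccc
Lama5 (chr2:180225860-180226109, minus strand): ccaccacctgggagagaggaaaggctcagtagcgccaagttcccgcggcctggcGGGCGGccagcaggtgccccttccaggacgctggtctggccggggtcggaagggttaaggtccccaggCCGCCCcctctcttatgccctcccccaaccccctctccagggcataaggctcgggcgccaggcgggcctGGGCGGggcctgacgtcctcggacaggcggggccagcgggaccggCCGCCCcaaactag
Lamb2 (chr9:108479612-108479735, plus strand): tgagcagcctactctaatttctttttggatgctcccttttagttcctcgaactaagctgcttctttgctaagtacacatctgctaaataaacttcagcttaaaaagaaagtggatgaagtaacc
Capitals mark the GC box (GGGCGG on either strand) and the CArG box, the site known for serum response factor. Over the full 250 bases upstream, Lama5 held 4 GC boxes, Nid1 held 1, and Lama2 and Lamb2 held 0, against a match in 32.7% of 32851 promoters of that length. A CArG box stood 39 bases before the Lama2 start and in none of the other 3, and 1.47% of all promoters held 1. The CCAAT box (CCAAT on either strand) was found in Nid1 alone of the 4 and in 33.8% of all promoters. The TATA box (TATAAA, 12.4% of promoters) and the AP-1 site (TGANTCA, 6.75% of promoters) were found in none of the 4 on either strand. These motifs do not overlap one another in the 4 sequences. The RefSeq start of Lama2 lies 2816 bases inside the annotated GENCODE gene, that of Lamb2 126 bases and that of Nid1 51 bases. The full 250 bases of these genes thus take in bases of the annotated gene. For Lama5 the 2 starts are the same. The 250 bases upstream were rich in G and C for Lama5 (72.4%) and Nid1 (64.4%) and less so for Lama2 (47.2%) and Lamb2 (43.6%), around a median of 52.4% for all promoters.

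Fibroblasts held most of the transcripts of these genes. The 10 genes had 101743 UMIs in the kept cells, 0.207% of all UMIs, and 54932 of the 79591 in gated cells (69.0%) lay in fibroblasts, which held 33.7% of all gated UMIs. The genes made up 0.399% of the UMIs of fibroblasts, 0.341% in Schwann cells, 0.266% in blood endothelial cells, 0.244% in pericytes, 0.198% in smooth muscle cells and 0.173% in mesothelial cells. In ductal cells the share was 0.0693% and in acinar cells 0.0364%. The lymphoid, myeloid and red blood classes had between 0.0434% and 0.0888%. As shares of all UMIs, stroma, nerve sheath and vessel wall were thus above the epithelium. The acinar gate markers, which count in these totals, had a summed level of 200024 in acinar and 59686 in ductal cells. The shares with enzyme UMIs left out are not given for these classes. Pericytes and smooth muscle cells held the fibroblast gate markers at 48.0% and 25.7% of the fibroblast level. The part of fibroblast RNA in their shares was not tested.

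Each class was set against all other gated cells pooled, and a gene counted as raised there at a ratio of at least 2. In fibroblasts 8 of the 10 genes did so, all but Lama5 and Agrn, against 13.7% of the 13073 genes with at least 100 UMIs. In blood endothelial cells 4 did (Lama5, Lamc1, Hspg2 and Agrn; background 14.8%), and in Schwann cells 4 (Lama2, Lama4, Nid2 and Agrn; background 17%). Mesothelial cells had 3 (Lama5, Nid2 and Agrn; background 12%) and smooth muscle cells 3 (Lama5, Lamb2 and Agrn; background 10.4%). Lama5 and Agrn made up the 2 in ductal cells (background 13.8%) and the 2 in pericytes (background 11.9%). None of the 10 reached that ratio in acinar cells (background 4.73%), T and NK cells (15.2%), B cells (15%), myeloid cells (12.9%) or red blood cells (2.37%). The median ratio over the 10 genes was 2.93 in fibroblasts, where that over all genes tested was 1.09, and 1.92 in Schwann cells against 1.04. It was 1.59 in blood endothelial cells against 1.18, and 0.473 in ductal cells against 1.19. Acinar cells, low in all 10 genes, held 30.5% of the gated UMIs and so weigh on the pooled cells that each class was set against.

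**Figure D1:**
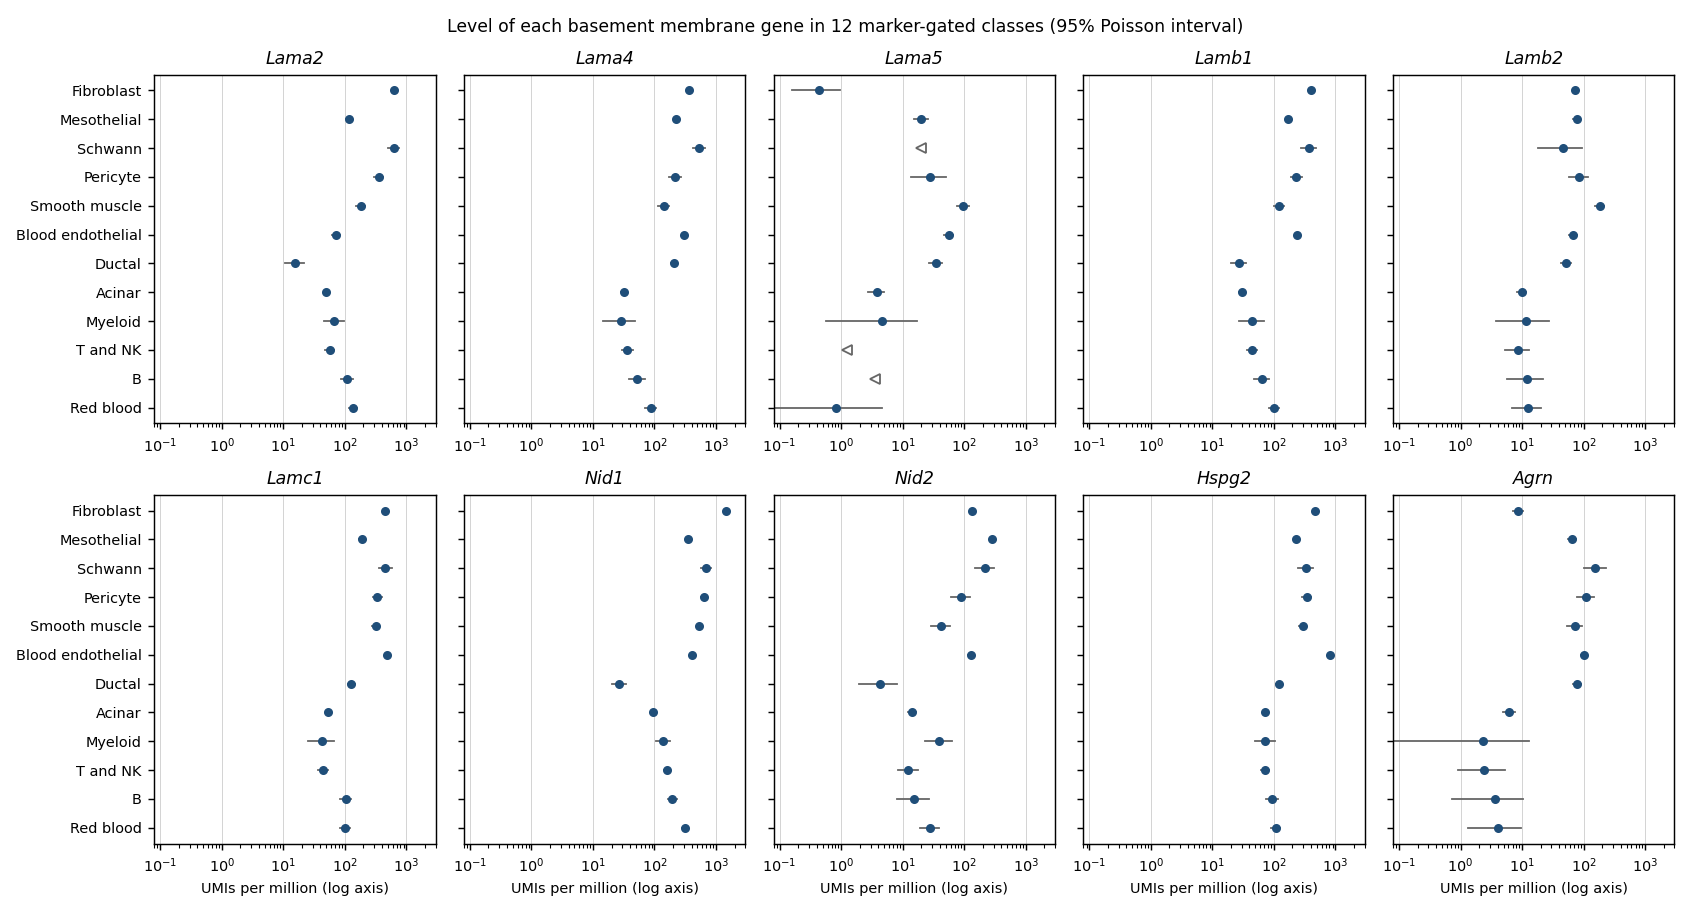
Level of each of the 10 genes (UMIs per 1000000 UMIs of the class, log axis) in the 12 marker-gated classes. Points are the pooled level, bars the 95% Poisson interval, and open triangles the level that 3 UMIs would give in a class with 0 UMIs. Lama5 and Agrn are low in fibroblasts and higher in vessel wall, mesothelial and ductal cells, while Nid1 leads in fibroblasts and Lama2 in fibroblasts and Schwann cells.

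Lymphocytes and red blood cells, which should lack most of these genes, serve as a comparison. T, NK and B cells are not known as makers of stromal matrix, and yet lymphocytes (the T and NK class and the B class pooled) held Lama2 at 11.2% of its fibroblast level, Lama4 at 11.1%, Lamb1 at 12.2%, Lamb2 at 12.8%, Lamc1 at 13.1%, Nid1 at 11.4% and Nid2 at 9.84%. The fibroblast gate markers together, led by Col1a1, Col1a2 and Col3a1, stood at 11.1%, between the 9.84% and 13.1% spanned by those 7 genes. Hspg2 stood higher, at 16.7%, and Agrn at 31.4% from 9 UMIs. Scrublet marked 6.28% of the T and NK class and 7.74% of the B class as doublets, and the part of doublets or of RNA from other cells in these levels was not tested. Lama5 had 0 UMIs in lymphocytes, which allows a level of up to 1.22 in the T and NK class and 3.57 in the B class by 3 UMIs. In red blood cells, which carry haemoglobin and little else, the markers stood at 19.3% of the fibroblast level and the 8 genes other than Lama5 and Agrn at 16.8% to 24.8%. In acinar cells the markers stood at 7.15%, with Nid1 at 6.55%, Lamb1 at 7.33%, Lama2 at 7.81% and Lama4 at 8.60%. Above these stood Nid2 at 10.5%, Lamc1 at 11.7%, Lamb2 at 13.5% and Hspg2 at 15.5%. Set against lymphocytes, acinar cells held Lama2, Lama4, Lamb1 and Nid1 at between 0.575 and 0.776 times their level, and Lamc1 at 0.894, Hspg2 at 0.928, Lamb2 at 1.05 and Nid2 at 1.07 times. Whether any of these 8 levels is expression in acinar cells was not tested. Lymphocytes held more of the fibroblast markers (11.1%) than acinar cells did (7.15%). Agrn stood in acinar cells at 2.23 times its lymphocyte level (95% interval 1.12 to 5.07), and Lama5 had 47 UMIs in acinar cells and 0 in lymphocytes.

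**Figure D2:**
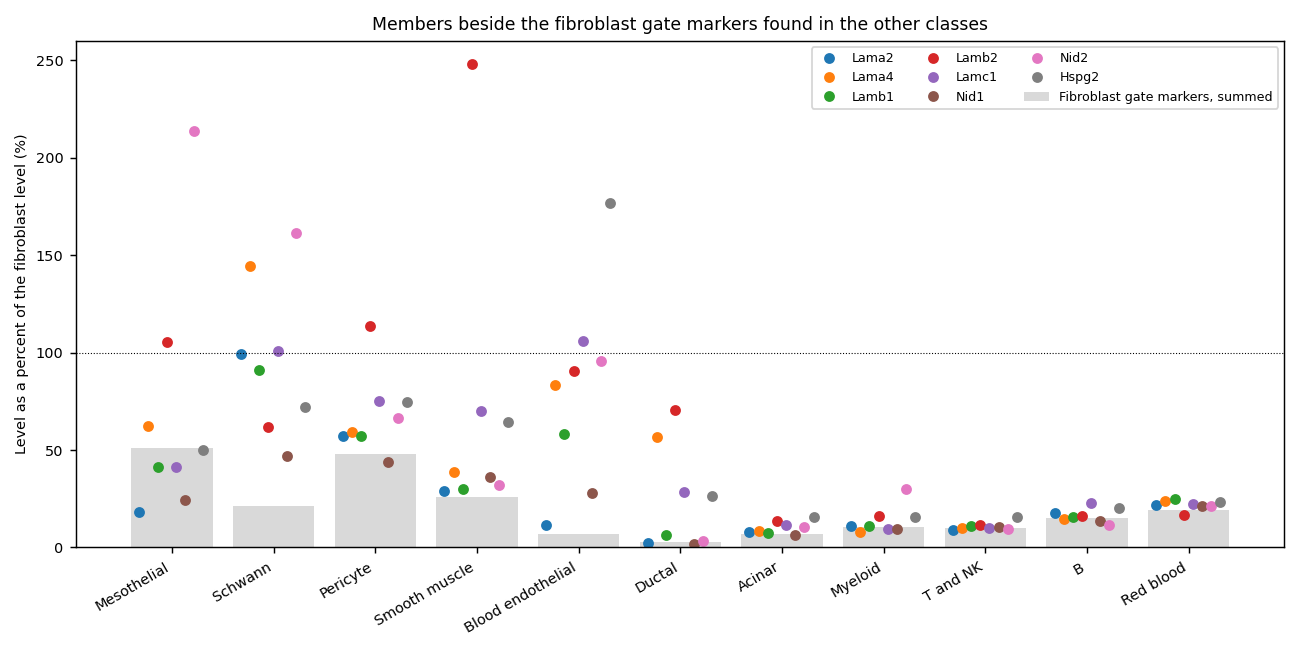
Level of 8 of the genes in each other class as a percent of the fibroblast level (points), beside the summed fibroblast gate markers (grey bars). Lama5 and Agrn, nearly absent from fibroblasts, are left out. In T and NK, B and red blood cells the points lie close to the bar. Above 100% lie Lamb2 in smooth muscle, pericyte and mesothelial cells and Nid2 in mesothelial and Schwann cells. So do Lama4 in Schwann cells, Hspg2 in blood endothelial cells and, by little, Lamc1 in blood endothelial and Schwann cells.

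Among the α chains, Lama2, the chain of the laminins of muscle and peripheral nerve, was highest in fibroblasts at 627 (95% interval 614 to 641) and in Schwann cells at 624 (95% interval 506 to 762). The ratio of these 2 levels was 1.00 (95% interval 0.822 to 1.24), so they were not told apart. Pericytes followed at 359 (95% interval 303 to 424) and smooth muscle cells at 182 (95% interval 153 to 214). These 2 classes also held the fibroblast gate markers at 48.0% and 25.7% of the fibroblast level, next to 57.3% and 29.0% for Lama2, and the part of fibroblast RNA in their Lama2 was not tested. Schwann cells held the markers at 21.5% and Lama2 at 99.5%. In blood endothelial cells Lama2 was at 71.8 (95% interval 61.9 to 82.8), a ratio of 1.02 to its level in lymphocytes. Ductal cells had the lowest level, 15.5 (95% interval 10.6 to 21.7). Lama2 was seen in 71.2% of fibroblasts, whose median depth was 2911 UMIs, and in 7.26% of T and NK cells, whose median was 1927. With every cell thinned to 800 UMIs those shares were 34.8% and 3.58%.

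Lama4, the α chain of vessel laminin and also of fat and nerve, was highest in nerve sheath, stroma and vessel. Mesothelial, pericyte and ductal cells came after these. The ratio of ductal cells to all other gated cells was 1.06 (95% interval 0.958 to 1.16). Its level was 527 (95% interval 418 to 655) in Schwann cells, from 81 UMIs in 37 of 59 cells, and 365 (95% interval 355 to 375) in fibroblasts, a ratio of 1.44 (95% interval 1.15 to 1.80). Blood endothelial cells stood at 303 (95% interval 283 to 325) and mesothelial cells at 228 (95% interval 211 to 245). Ductal cells, with 441 UMIs, stood at 207 (95% interval 188 to 227), not told apart from pericytes at 215 (95% interval 172 to 266). In ductal cells the fibroblast markers were at 2.70% of the fibroblast level, against 56.7% for Lama4, and its UMIs came from 66 of 89 cells. These cells also held the acinar gate markers at 59686 UMIs per 1000000, while Lama4 in acinar cells was low, as given next. Thinned to 800 UMIs, 13.5% of ductal cells still held a Lama4 UMI, against 3.85% of acinar and 1.63% of T and NK cells. Acinar cells were at 31.4 (95% interval 28.3 to 34.6), below the 40.4 of lymphocytes.

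Lama5, the α chain of most epithelial and arterial basement membranes, was nearly lacking in fibroblasts. Its level was highest in smooth muscle cells, 95.9 (95% interval 75.6 to 119.8) from 77 UMIs in 48 of 167 cells. Blood endothelial cells followed at 56.5 (95% interval 47.8 to 66.4), a ratio of 1.70 (95% interval 1.27 to 2.25), and ductal cells at 34.2 (95% interval 26.8 to 43.0). Pericytes at 27.8 (95% interval 13.9 to 49.8) were told apart neither from ductal nor from mesothelial cells, the latter at 19.9 (95% interval 15.2 to 25.6). The 3733 fibroblasts held 6 UMIs, a level of 0.436 (95% interval 0.160 to 0.949), while Schwann cells held 0, which allows a level of up to 19.5 by 3 UMIs. Acinar cells had 3.78 (95% interval 2.78 to 5.03), from 47 UMIs. The ratio of acinar cells to fibroblasts was 8.67 (95% interval 3.70 to 24.8).

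The make-up of the α chains differed between classes. Of the UMIs of Lama2, Lama4 and Lama5 together, Lama2 made up 63.2% (95% interval 62.4 to 64.0, 8630 of 13651 UMIs) in fibroblasts and 54.2% (95% interval 46.6 to 61.7, 96 of 177 UMIs) in Schwann cells. In blood endothelial cells Lama4 took 70.3% (95% interval 67.5 to 72.9, 794 of 1130 UMIs), Lama2 16.6% and Lama5 13.1%. Over all 5 α chains, Lama3 came after Lama4 (55.2%) in that class, with 21.4% (95% interval 19.3 to 23.6, 308 of 1438 UMIs), above Lama2 (13.1%) and Lama5 (10.3%). Ductal cells leaned furthest to Lama4, with 80.6% (95% interval 77.1 to 83.9, 441 of 547 UMIs), and had Lama5 at 13.3%. In mesothelial cells Lama4 made up 62.8% and Lama2 31.8%. Smooth muscle cells held Lama2 at 43.5%, Lama4 at 33.6% and the largest share of Lama5, 22.9% (95% interval 18.5 to 27.8, 77 of 336 UMIs). With the lymphocyte level subtracted, the Lama2 share became 0.407% in blood endothelial, 17.7% in mesothelial and 36.2% in smooth muscle cells and was 63.2% in fibroblasts. With the fibroblast profile subtracted in proportion to the gate markers, an alternative chosen after seeing the data, it became 12.7% in smooth muscle and 7.54% in blood endothelial cells.

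**Figure D3:**
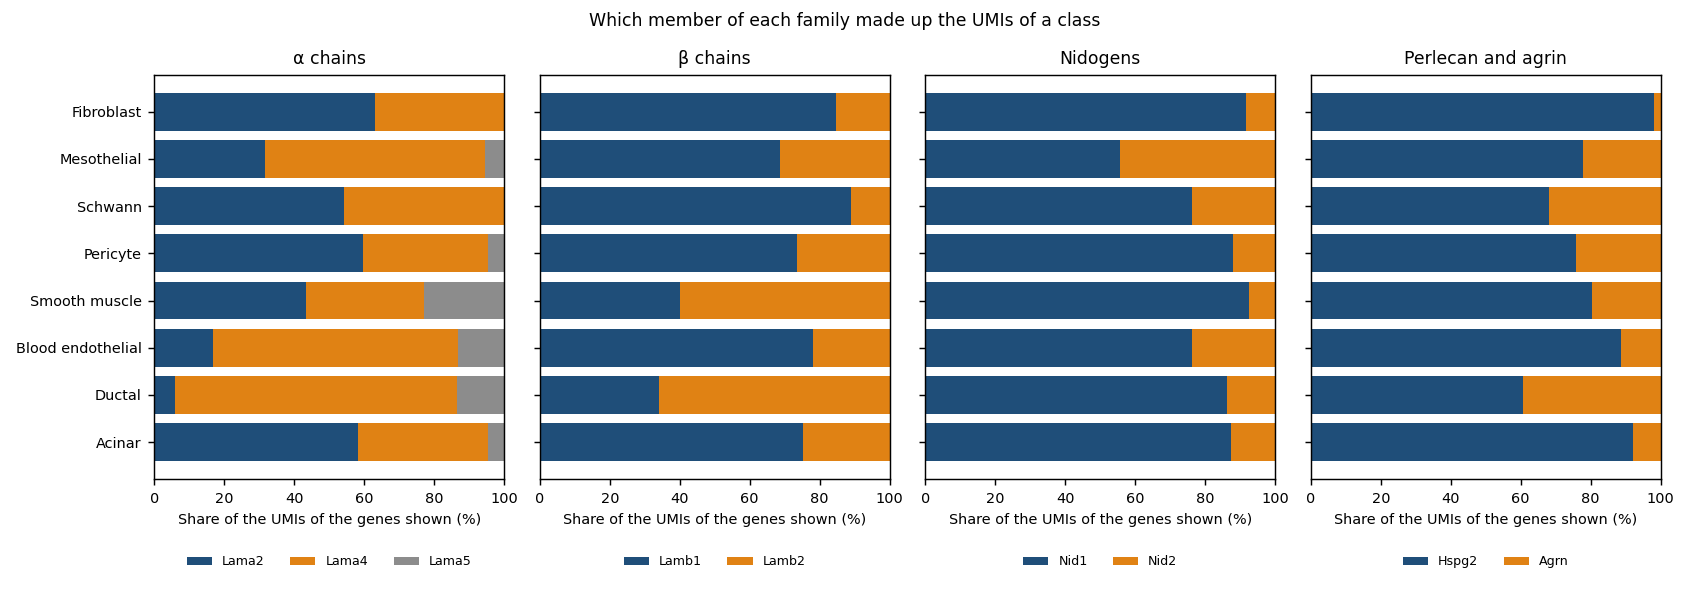
Share (%) of the UMIs of each family that a member made up, for the 3 α chains, 2 β chains, 2 nidogens and 2 proteoglycans, in the 8 classes with stroma, vessel and epithelium. Lama4 fills most of the α bar in ductal and blood endothelial cells, Lamb2 most of the β bar in smooth muscle and ductal cells, and Nid2 reaches 44.3% of the nidogen bar in mesothelial cells.

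Of the β chains, Lamb1, the chain of early and widely made laminins, had the same leading classes as Lama2. It was at 408 (95% interval 398 to 419) in fibroblasts and 371 (95% interval 281 to 480.2) in Schwann cells, a ratio of 1.10 (95% interval 0.849 to 1.46), and at 238 (95% interval 219 to 257) in blood endothelial cells and 233 (95% interval 188 to 286) in pericytes, the last 2 not told apart. Lamb2, the chain of the synapse, the kidney filter and arterial muscle, had another order. Smooth muscle cells led at 182 (95% interval 153 to 214), from 146 UMIs in 83 of 167 cells, a ratio of 2.18 (95% interval 1.48 to 3.28) to the pericytes that came next. Pericytes, mesothelial cells, fibroblasts and blood endothelial cells lay between 83.5 and 66.5, and neighbours among them were not told apart. Ductal cells were at 51.5 (95% interval 42.4 to 62.1), or 70.3% of the fibroblast level, while their Lamb1 stood at 6.54%.

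Lamb2 thus made up 65.9% (95% interval 58.1 to 73.0, 110 of 167 UMIs) of the Lamb1 and Lamb2 UMIs of ductal cells and 59.8% (95% interval 53.4 to 66.0, 146 of 244 UMIs) in smooth muscle cells. In fibroblasts it was 15.2% (95% interval 14.4 to 16.1, 1009 of 6624 UMIs). Mesothelial cells had 31.4%, pericytes 26.4%, blood endothelial cells 21.9% and Schwann cells 10.9%. With Lamb3 counted among the β UMIs, the Lamb2 share in ductal cells was 60.4%, and Lamb3 had 8.24%. In smooth muscle cells Lamb3 had 0 UMIs. Smooth muscle was the class that led in both Lama5 and Lamb2. Its Lamb1, at 29.9% of the fibroblast level, stood close to the 25.7% of the fibroblast markers. With the fibroblast profile subtracted in the same way, the Lamb2 share in smooth muscle cells became 90.4%.

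Lamc1, the γ chain shared by most laminins, was alike at the top of its order across vessel, nerve sheath and stroma. Blood endothelial cells at 477 (95% interval 451 to 504), Schwann cells at 455 (95% interval 355 to 575) and fibroblasts at 451 (95% interval 440.1 to 463) stood at the top, and neighbours among them were not told apart. Pericytes at 339 (95% interval 284 to 402) and smooth muscle cells at 316 (95% interval 279 to 358) were not told apart from each other. Mesothelial cells had 187 (95% interval 172 to 203) and ductal cells 128 (95% interval 113 to 144).

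A laminin needs all 3 chains. A UMI of each of an α, a β and a γ chain was found together in 49.1% of fibroblasts (95% interval 47.5 to 50.7), 54.1% of blood endothelial cells (95% interval 48.8 to 59.4), 53.9% of ductal cells (95% interval 43.0 to 64.6), 45.8% of Schwann cells (95% interval 32.7 to 59.2) and 3.25% of T and NK cells. Depth differs between these classes, with a median of 15427 UMIs in ductal and 2911 in fibroblast cells. Thinned to 800 UMIs, the share was 5.95% in fibroblasts, 3.68% in blood endothelial cells, 8.47% in Schwann cells, 0.108% in T and NK cells and 0 of 89 in ductal cells (95% interval 0 to 4.06). At that depth 25.3% of fibroblasts, 37.7% of blood endothelial and 71.9% of ductal cells held none of the 6 chains.

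The nidogens parted by class. Nid1, the main nidogen of most tissues, was highest in fibroblasts, 1467 (95% interval 1447 to 1487), and was found in 91.8% of them. Schwann cells came next at 689 (95% interval 564 to 834), a ratio of 2.13 (95% interval 1.76 to 2.60), then pericytes at 640.3 (95% interval 564 to 724), not told apart from Schwann cells, and smooth muscle cells at 533 (95% interval 484 to 586). Blood endothelial cells were at 406 (95% interval 382 to 432) and mesothelial cells at 356 (95% interval 335 to 378). In pericytes and mesothelial cells Nid1 stood at 43.6% and 24.3% of the fibroblast level, below the fibroblast gate markers at 48.0% and 51.0%. In Schwann, smooth muscle and blood endothelial cells it stood at 47.0%, 36.3% and 27.7%, above the markers at 21.5%, 25.7% and 7.11%. The part of fibroblast RNA in these levels was not tested. In ductal cells Nid1 was at 26.7 (95% interval 20.2 to 34.6), or 1.82% of the fibroblast level, below the 2.70% of the fibroblast markers there.

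Nid2, the second nidogen, was instead highest in mesothelial cells at 284 (95% interval 265 to 304), from 858 UMIs in 331 of 503 cells. Schwann cells at 215 (95% interval 148 to 301) were not told apart from them, and fibroblasts stood at 133 (95% interval 127 to 139), close to blood endothelial cells at 127 (95% interval 114 to 142). The ratio of mesothelial cells to fibroblasts was 2.14 (95% interval 1.97 to 2.32). Mesothelial cells held the fibroblast markers at 51.0% of the fibroblast level, with Nid1 at 24.3% and Nid2 at 214%. Scrublet marked 10.9% of them as doublets. Nid2 made up 44.3% (95% interval 42.1 to 46.6, 858 of 1935 UMIs) of the nidogen UMIs in mesothelial cells and 8.31% (95% interval 7.94 to 8.68, 1828 of 22010 UMIs) in fibroblasts. It was 23.8% in blood endothelial, 23.7% in Schwann and 7.36% in smooth muscle cells.

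Of the proteoglycans, Hspg2, whose perlecan is a major heparan sulfate carrier of vessel walls, was highest in blood endothelial cells at 811 (95% interval 777 to 847). It was seen in 90.1% of cells, and 49.0% after thinning, against 12.2% and 5.31% of T and NK cells. The ratio to fibroblasts, at 459 (95% interval 448 to 471), was 1.77 (95% interval 1.68 to 1.86). Pericytes, Schwann cells and smooth muscle cells lay between 342 and 296, neighbours not told apart.

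Agrn, whose agrin clusters receptors at the nerve-muscle junction and lines many epithelia and capillaries, was nearly lacking in fibroblasts, at 8.72 (95% interval 7.23 to 10.4). Schwann cells were highest at 156 (95% interval 100.0 to 232), though from 24 UMIs, and were not told apart from pericytes at 109 (95% interval 78.8 to 147), nor those from blood endothelial cells at 102 (95% interval 90.5 to 115). Pericytes held the endothelial gate markers at 1288 UMIs per 1000000 against 7372 in the endothelium, and the part of endothelial RNA in their Agrn was not tested. Ductal cells at 78.3 (95% interval 66.8 to 91.1), smooth muscle cells at 72.2 (95% interval 54.8 to 93.3) and mesothelial cells at 65.5 (95% interval 56.7 to 75.3) followed, and neighbours among them were not told apart. The step from mesothelial cells to fibroblasts was 7.51 (95% interval 5.96 to 9.50). Agrn made up 39.2% (95% interval 34.5 to 44.0, 167 of 426 UMIs) of the UMIs of the 2 proteoglycans in ductal cells and 1.86% (95% interval 1.55 to 2.22, 120 of 6439 UMIs) in fibroblasts. Agrn and Lama5 were alike in that every class from mesothelium to vessel wall and duct held more of them than fibroblasts, but Schwann cells had Agrn and 0 UMIs of Lama5.

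Within the fibroblast class, 3 subsets were gated by Rspo3 and Cxcl14 (736 cells), Mfap4 and Meox2 (976 cells), and Pi16, Pcolce2 and Dpp4 (1108 cells), the last a set known from fibroblasts of outer vessel layers and fascia. At least 1 marker with a UMI was asked for, and 913 fibroblasts fell in none of the 3 subsets. Lama2 was 864 (95% interval 829 to 900.5) in the Rspo3 subset, 737 (95% interval 708 to 768) in the Mfap4 subset and 407 (95% interval 389 to 425) in the Pi16 subset. The Rspo3 subset thus held 2.12 (95% interval 2.00 to 2.26) times the Lama2 of the Pi16 subset. Nid1 ran against this, with 1939 (95% interval 1900.0 to 1979) in the Pi16 subset, 1276 (95% interval 1234 to 1320.3) in the Rspo3 subset and 1005 (95% interval 971 to 1039.9) in the Mfap4 subset. The ratio of the Pi16 to the Mfap4 subset was 1.93 (95% interval 1.85 to 2.01).

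Nid2 was highest in the Rspo3 subset at 239.7 (95% interval 221 to 259) and lowest in the Pi16 subset at 71.4 (95% interval 64.1 to 79.3), a ratio of 3.36 (95% interval 2.94 to 3.84). The 2 nidogens therefore stood in opposite order between these 2 subsets, and Nid2 made up 15.8% (95% interval 14.7 to 17.0) of nidogen UMIs in the Rspo3 subset, 10.6% (95% interval 9.60 to 11.6) in the Mfap4 subset and 3.55% (95% interval 3.19 to 3.94) in the Pi16 subset. Lama4 was not told apart between the Rspo3 subset at 409 (95% interval 385 to 434) and the Pi16 subset at 389.6 (95% interval 372 to 408), and was lower in the Mfap4 subset at 276 (95% interval 258 to 295). Lama2 made up 72.7% (95% interval 71.2 to 74.2) of the α UMIs in the Mfap4 subset and 51.1% (95% interval 49.5 to 52.7) in the Pi16 subset.

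Lamb1 and Lamc1 shared an order, with the Rspo3 subset highest and the Mfap4 subset lowest. Lamb1 was 516 (95% interval 489 to 544) in the former and 330.1 (95% interval 311 to 350.4) in the latter, and Lamc1 was 548 (95% interval 519.9 to 577) and 384 (95% interval 363 to 405). Lamb2 was lower in the Rspo3 subset at 55.8 (95% interval 47.2 to 65.6) than in the Mfap4 subset at 80.4 (95% interval 71.0 to 90.7), a ratio of 0.695 (95% interval 0.564 to 0.853). Hspg2 differed least, from 522 (95% interval 495 to 550.3) in the Rspo3 subset to 405 (95% interval 388 to 424) in the Pi16 subset. Agrn was 12.5 (95% interval 8.99 to 17.0) in the Mfap4 subset and 6.17 (95% interval 4.17 to 8.81) in the Pi16 subset, a ratio of 2.03 (95% interval 1.24 to 3.37). Lama5 held 1 to 3 UMIs in each subset. The median depth of the subsets was 2923, 2654 and 3539 UMIs in the order given.

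**Figure D4:**
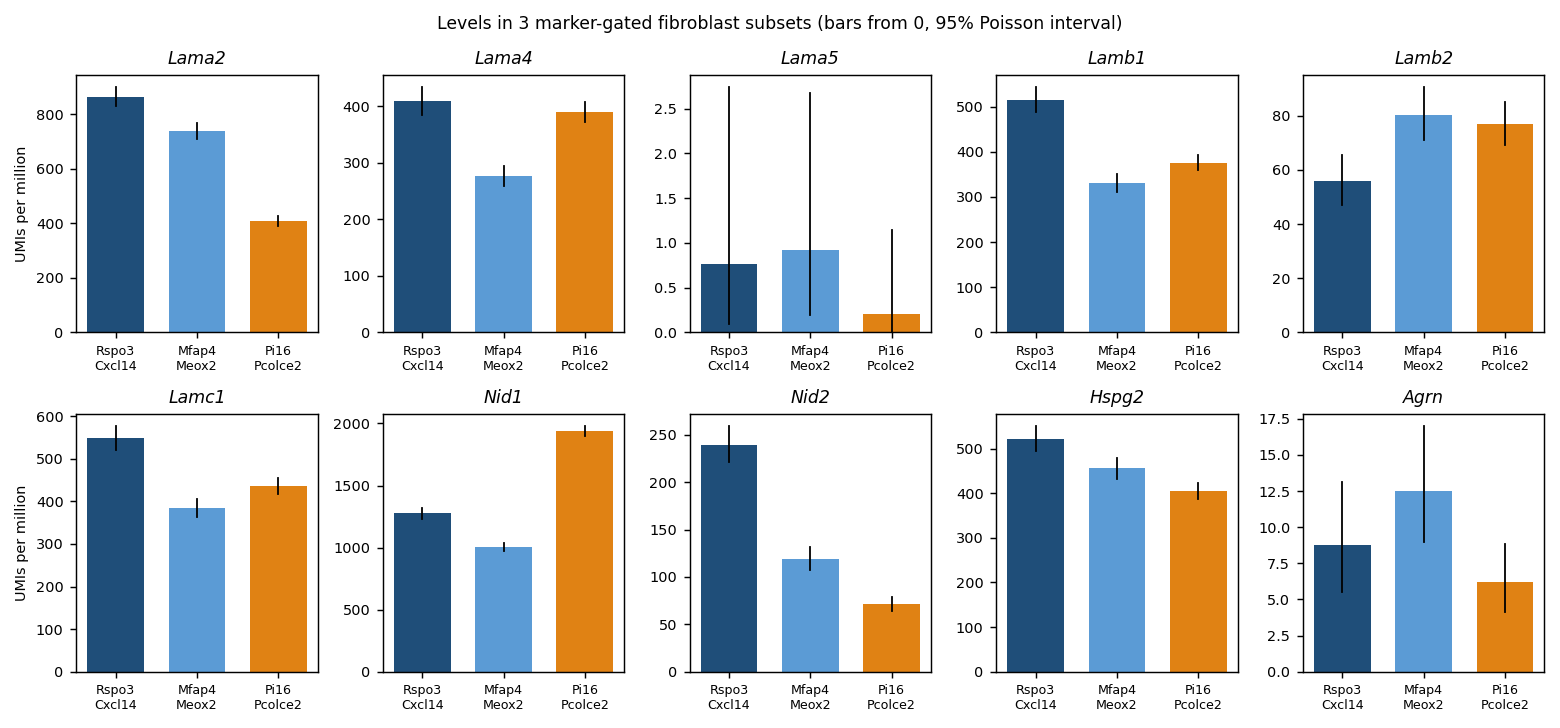
Level of each gene (UMIs per 1000000, bars from 0, each panel with its own scale) in the 3 fibroblast subsets named by their gate markers, with the 95% Poisson interval as a line. Lama2 and Nid2 are lowest and Nid1 highest in the Pi16 Pcolce2 subset.

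Cycling fibroblasts, the 132 with UMIs of at least 2 of Mki67, Top2a, Cenpf and Birc5, had less of several of the genes per UMI than the other 3601. The ratio was 0.699 (95% interval 0.616 to 0.790) for Hspg2, 0.723 (95% interval 0.638 to 0.817) for Lamc1, 0.768 (95% interval 0.670 to 0.876) for Lama4, 0.806 (95% interval 0.755 to 0.860) for Nid1 and 0.810 (95% interval 0.733 to 0.894) for Lama2. For Nid2 it was 0.772 (95% interval 0.614 to 0.960). The interval held 1 for Lamb1 at 0.979 (95% interval 0.873 to 1.10) and Lamb2 at 0.895 (95% interval 0.668 to 1.18). It also held 1 for Agrn, whose ratio lay above 1, at 1.60 (95% interval 0.775 to 2.97). Lama5 had 0 UMIs in cycling fibroblasts. Cycling fibroblasts were deeper, with a median of 4722.5 UMIs against 2884.

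The other genes of basement membranes were taken from 4 lists and counted by the same ratio of at least 2 over all other gated cells, beside the background given above for each class. Among other laminin chains, Lama1 had 9 UMIs and was not tested. Mesothelial cells were raised in Lama3 (39.0) and Lamc3 (28.1). Lama3, an α chain known from epithelia, was highest in blood endothelial cells at 118 (95% interval 105 to 132) and stood at 78.5 (95% interval 53.3 to 111) in pericytes. Lamb3, a β chain known from epithelia, was highest in B cells at 44.0, from 37 UMIs in 349 cells, and then in T and NK cells at 19.2 (95% interval 14.1 to 25.5), where fibroblasts had 0.945. Acinar cells held 120 of the 257 Lamb3 UMIs of gated cells, at a ratio of 1.996 (95% interval 1.55 to 2.57), just under the limit of 2.

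Of 8 network collagens, Col4a1 and Col4a2, the common collagen IV pair, were led by blood endothelial cells at 4015 and 1998, followed by pericytes at 1938 and 1111. Mesothelial cells had 74.8 and 42.7, the latter below the 47.8 of T and NK cells. They were raised instead in 5 of the 8, the restricted chains Col4a3 (54.6), Col4a4 (227), Col4a5 (309.7) and Col4a6 (123), and Col18a1 (239.9), with a median ratio of 6.42 over the 8 against 1.13 over all genes. Smooth muscle cells were raised in Col4a5 (148), Col4a6 (53.5) and Col18a1 (274), and ductal cells in Col4a5 (137). Col18a1, highest in Schwann cells (442), was also raised in pericytes (149). Col15a1, of the collagen between basement membrane and stroma, was raised in blood endothelial cells (729) and fibroblasts (654).

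**Figure D5:**
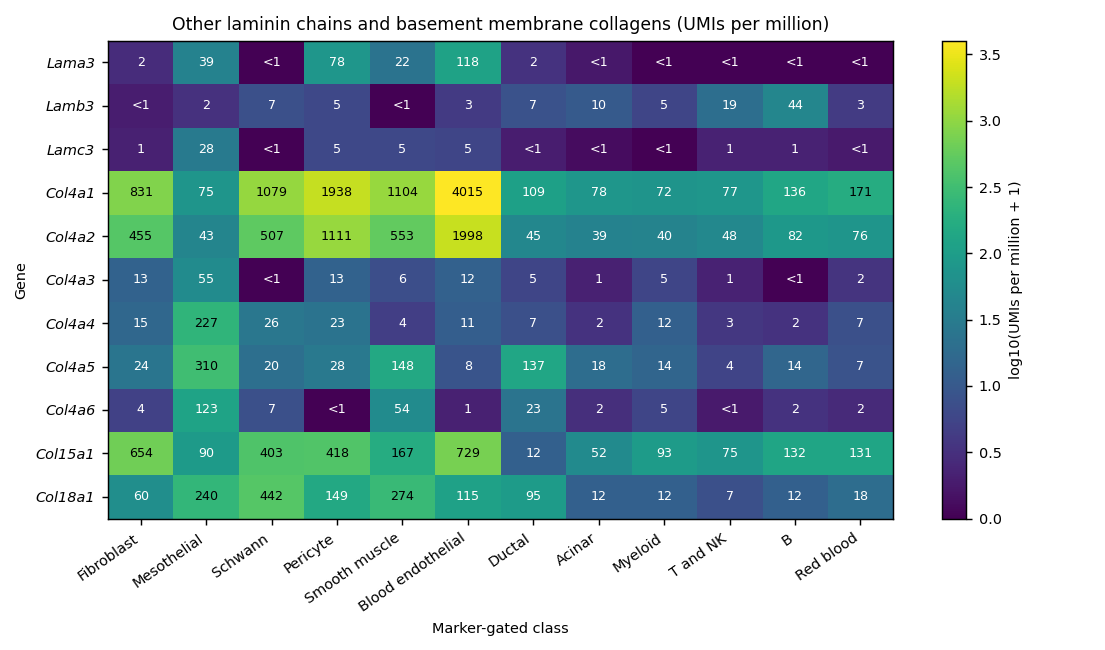
Levels (UMIs per 1000000, printed in each cell and coloured by log10 of the level + 1) of 3 other laminin chains and 8 collagens in the 12 classes. Col4a1 and Col4a2 are brightest in blood endothelial cells, while Col4a3 to Col4a6 are brightest in mesothelial cells.

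Of 10 other basement membrane proteins, fibroblasts were raised in 5 (Sparc, Egflam, Smoc2, Hmcn1 and Frem1) and mesothelial cells in 4 (Sparc, Npnt, Fras1 and Frem2). Hmcn1, of a very large matrix linker, was at 462 in fibroblasts, and Fras1, which anchors embryonic epithelia, at 307 in mesothelial and 106 in ductal cells. Smooth muscle cells were raised in 3 (Ntn4 at 117, Egflam at 85.9 and Tinagl1 at 377). Blood endothelial cells were raised in Npnt and Tinagl1, pericytes in Egflam and Tinagl1, Schwann cells in Egflam, and ductal cells in Fras1 and Frem2.

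Of 9 receptors, fibroblasts were raised in 0, with a median ratio of 0.187 against 1.09 over all genes. Blood endothelial cells were raised in 7, with a median ratio of 3.13, and Schwann cells in 6. Itga1, the α subunit of a collagen and laminin integrin, was at 655 in blood endothelial cells, 635 in pericytes and 615 in smooth muscle cells, and at 56.2 in fibroblasts. Itga6, the laminin receptor subunit of epithelia and endothelia, was at 574 in blood endothelial, 435 in acinar and 344 in ductal cells, and at 10.0 in fibroblasts. It was the only 1 of the 9 receptors raised in acinar cells. Itga7, the muscle laminin integrin, was highest in smooth muscle cells at 126. Bcam, a receptor for Lama5 chains, was at 181 in smooth muscle, 151 in mesothelial, 94.3 in blood endothelial, 56.7 in ductal and 3.63 in fibroblast cells. Dag1, the dystroglycan precursor, was raised in Schwann cells (429) and mesothelial cells (367).

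The genes whose pattern was most like each member were found by Pearson's r of log2(level + 1) over the 12 classes, which share 1 library, and are given as a description. Nid1 was most like Dpysl3 (r = 0.99), Fstl1 (0.97) and Mfap2 (0.96), and Lama2 like Mmp2 (0.97), Col5a3 (0.96) and Tppp3 (0.96). Lama5 was most like Cav2 (0.94), Fam189a2 (0.93) and Bcam (0.93). Lamb2 was most like Nrep (0.97), Ift43 (0.97) and Kank2 (0.96), and Hspg2 like Igfbp7, Sash1 and Kctd17 (0.95 each). Lama4 led to Mex3d (0.96), Lamb1 to Lhfpl2 (0.97), Lamc1 to Afap1 (0.96), Nid2 to Plscr4 (0.95) and Agrn to Odf2l (0.96). Among the 10 genes themselves, Lamc1 was closest to Hspg2 (0.96) and Lama2 to Nid1 (0.93), and Lama2 and Lama5 were least alike (-0.27).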

How the data were processed

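One droplet library of the pooled pancreata of Scap f/f mice was used. The authors aligned the reads to an mm10 reference with Cell Ranger 7.1.0 and deposited raw counts of UMIs for each barcode of a called cell, not normalized. The lowest barcode held 500 UMIs, so the limits of the study's methods (over 800 and under 10000 UMIs, under 15% mitochondrial UMIs) had not been applied, and its removal of ambient RNA was not repeated. Barcodes with over 800 and under 100000 UMIs and under 15% mitochondrial UMIs were kept here.

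Each kept barcode was scored for 14 marker lists by the mean of log1p of UMIs per 10000, standardised per gene. It took the best class where at least 3 of its markers had a UMI and the score lay at least 0.3 above the next. For the fibroblast subsets, scored among fibroblasts, at least 1 marker with a UMI was enough. Doublets were marked with Scrublet (scanpy 1.11.5, expected rate 0.08) and kept. UMIs were summed per class and given per 1000000, with exact 95% Poisson intervals, exact binomial (Clopper-Pearson) intervals for shares and exact conditional binomial intervals for ratios (scipy 1.17.1). Classes whose ratio interval holds 1 were called not told apart. With 1 library there is no test, and the intervals cover counting error only. A count of 0 was given the limit of 3 UMIs. Shares of cells were also taken after thinning each cell to 800 UMIs. Genes with at least 100 UMIs in gated cells entered the 2-fold counts.

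All 10 genes are named, and from lists of 32 related genes those at least 2-fold higher in a class than in all other gated cells, except 1 gene that is not reported here. For each of the 10, up to 3 most alike genes are named among those with at least 300 UMIs. The genes and lists were chosen with earlier results of these data known. The summing, intervals and fold counts were tested on simulated data. The alternatives were other UMI and mitochondrial limits, doublet removal, other gate settings, Leiden clusters, per-cell means, other denominators, leaving out cycling cells, and subtraction of the lymphocyte level or of the fibroblast profile, the last chosen after seeing the data. Promoter sequences are from RefSeq (GRCm38.p6).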

Additional observations from a re-analysis of the deposited data

How the results depend on the processing

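Across 12 alternatives, between 8 and 10 of the 10 genes had the same highest class as in the main setting. The switches lay between the fibroblast and Schwann classes for Lama2, among the blood endothelial, Schwann and fibroblast classes for Lamc1, and in Lama4 and Agrn, where the Schwann class fell under 50 cells with a lower limit of 1500 UMIs (40 cells) or at least 4 markers (30 cells) and gave no value. The ductal class fell to 36 cells with an upper limit of 10000 UMIs. No Leiden cluster was named pericyte, so that alternative gave no pericyte level. The pericyte score came second there in the blood endothelial cluster (1.319), the smooth muscle cluster (1.702) and a fibroblast cluster (0.212). In the main setting the pericyte gate markers had a summed level of 4426 in pericytes, 2340 in blood endothelial cells and 1935 in smooth muscle cells. Of the values of the shares and of the count of genes with the same highest class, 103 stayed within the main interval or close to the main count and 26 moved. The limit for a count was loose, and the counts of 8 to 10 from all 12 alternatives passed it. They are among the 103, so that the 26 that moved are all shares. Of the levels of the 10 genes in their main highest class, 93 stayed within the main interval and 23 moved. Hspg2 in blood endothelial cells ranged from 717 in Leiden clusters to 951 as a mean of per-cell values. Nid2 in mesothelial cells fell to 216 with the fibroblast profile subtracted. The cause of a move was not tested where the alternative does not fix it by its own construction.

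The Lama2 share of the α chains in blood endothelial cells moved from 16.6% to 22.2% with an upper limit of 10000 UMIs, 14.1% without Scrublet doublets, 19.7% without cycling cells, 0.407% with the lymphocyte level subtracted and 7.54% with the fibroblast profile subtracted. In mesothelial cells it moved from 31.8% to 28.9% without doublets and 17.7% with the lymphocyte level subtracted. In smooth muscle cells it moved from 43.5% to 34.5% with at least 4 markers, 36.2% with the lymphocyte level subtracted and 12.7% with the fibroblast profile subtracted. In fibroblasts it moved from 63.2% to 61.8% at a gate margin of 0.6 and to 65.7% in Leiden clusters.

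The Lamb2 share of Lamb1 and Lamb2 UMIs moved in blood endothelial cells from 21.9% to 29.2% (upper limit of 10000 UMIs) and 25.2% (Leiden clusters). It moved in mesothelial cells from 31.4% to 36.3% (lymphocyte level subtracted) and in fibroblasts from 15.2% to 16.2% (margin 0.6). In smooth muscle cells it moved from 59.8% to 53.0% (Leiden clusters), 70.5% (lymphocyte level subtracted) and 90.4% (fibroblast profile subtracted). The Nid2 share of the nidogens moved in blood endothelial cells from 23.8% to 28.8% (upper limit of 10000 UMIs), 32.3% (lymphocyte level subtracted) and 28.0% (fibroblast profile subtracted). It moved in mesothelial cells from 44.3% to 58.9% (lymphocyte level subtracted), in smooth muscle cells from 7.36% to 5.00% (fibroblast profile subtracted), and in fibroblasts from 8.31% to 7.90% (margin 0.6) and 8.82% (Leiden clusters). Subtracting the fibroblast profile from mesothelial cells took at least 1 level below 0 and gave no share there. No paired analysis was possible because the data are 1 library with no replicates. The Schwann, ductal and pericyte classes hold 59, 89 and 99 cells, and the 0 of Lama5 in Schwann cells allows a level of up to 19.5.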

Other observations

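The lymphatic endothelial and endocrine classes, with 12 cells each, were left out of the comparisons and are given as values. In the 12 lymphatic endothelial cells Lama4 had 118 UMIs, Lamc1 84 and Agrn 42, and Lama2 had 2. Their fibroblast gate markers stood at 1.70% of the fibroblast level, while Lama4 stood at 134% and Lama2 at 1.32%. All 3 laminin chain kinds were found together in 8 of the 12 cells. In the 12 endocrine cells the 10 genes had 110 UMIs, 0.0387% of the UMIs of the class.

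The 2768 ungated cells held Nid1 at 812 UMIs per 1000000, Lama2 at 499, Hspg2 at 357, Lamc1 at 308, Agrn at 15.8 and Lama5 at 5.34. In fibroblasts the same genes stood at 1467, 627, 459, 451, 8.72 and 0.436. The marker gate gave these cells no class, and they took no part in the comparisons of the main setting. The Leiden alternative left no kept cell without a class, and its fibroblast class held 5480 cells.

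Lamb3 had 84 UMIs in lymphocytes, 25.5 per 1000000, where Lama3 had 0, and was at 0.945 per 1000000 in fibroblasts.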
